A study of Mus musculus with 6 samples.

Results

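The 10 genes described here, *Trem2*, *Cd9*, *Gpnmb*, *Lgals3*, *Cd63*, *Cd68*, *Ms4a7*, *Apoe*, *Lipa* and *Itgax*, mark macrophages that take up and break down lipid, the lipid-associated macrophages of adipose tissue and the foamy macrophages of arterial plaques. They were chosen by symbol, and all 10 were found among the 37384 gene symbols of the count table. RNA was sequenced from adipocytes floated from collagenase-digested inguinal subcutaneous white adipose tissue (scWAT) of male mice at postnatal day 7. L1L2-FF mice carry the genotype Lats1f/fLats2f/f, and L1L2-AKO mice carry Lats1f/fLats2f/fAdipoqCre. Both groups therefore share the floxed alleles, and they differ in Cre recombinase, which the *Adipoq* promoter drives in adipocytes. Each group has 3 libraries, given as biological replicates, from adipocytes of 4 pooled mice each.

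Lipid-associated macrophages sense lipid and dying cells at their surface, engulf them, and digest the cargo in lysosomes. TREM2 is the lipid-sensing receptor of these cells and signals through the adaptor TYROBP. CD9 is a tetraspanin, and galectin-3 is a galectin that lipid-laden macrophages release and that binds damaged lysosomes. CD63, another tetraspanin, CD68 and GPNMB sit in the membranes of the endolysosomal route. There lysosomal acid lipase, encoded by *Lipa*, frees cholesterol and fatty acids from lipoprotein lipids. Apolipoprotein E then carries cholesterol out of the cell. Several of the genes are not particular to macrophages: *Apoe*, *Cd9*, *Cd63*, *Lgals3* and *Lipa* are also expressed by adipocytes, fibroblasts or other cells of fat.

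Total counts ranged from 30548473 to 32107917 per library. Of the genes deleted by design, *Lats1* was lower in the libraries labelled L1L2-AKO (log2 fold change -1.04), but *Lats2* was higher (log2 fold change 0.64), against the label, and a count for a whole gene does not show whether its floxed exons were lost. *Adipoq*, the gene whose promoter drives Cre, was lower too (log2 fold change -1.26, edgeR, adjusted p = 0.00640). Directions below therefore follow the labels of the libraries. *Adipoq* and the other mature adipocyte markers were abundant in all libraries, with the 12 markers summing to between 13970 and 24960 CPM, counts scaled to the same library total after TMM normalisation. A list of 16 core macrophage genes, such as *Adgre1*, *Csf1r* and *Mrc1*, was measured too, with none at 0, and its summed level was 309 to 611 CPM in L1L2-FF and 1141 to 1272 CPM in the libraries labelled L1L2-AKO. The part of macrophage number in the results below was not tested, since bulk counts cannot tell more cells of a type apart from more RNA per cell.

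Of the 10 genes, 5 rose and 1 fell in the libraries labelled L1L2-AKO, and 4 did not pass the test, by edgeR's quasi-likelihood F test at a Benjamini-Hochberg adjusted p of 0.05 over 15674 tested genes. *Ms4a7* rose most, by 3.83-fold, followed by *Cd9*, *Cd68*, *Cd63* and *Lipa*, each by between 1.51-fold and 1.95-fold. *Apoe* fell to 0.550 of its L1L2-FF level. *Trem2*, *Gpnmb* and *Itgax* had fitted changes larger than those of *Cd9* and *Cd68* (log2 fold changes of 1.17, 1.31 and 1.26) without passing. In all genes tested, 9.28% were called higher and 7.18% lower. The median log2 fold change was 0.90 over the 10 genes and -0.02 over all genes tested. Not all of these calls hold when a library is left out: of the 6 genes only *Ms4a7* stayed past the threshold without L1L2-FF replicate 1, without L1L2-FF replicate 3 *Cd68*, *Ms4a7* and *Lipa* did, and without replicate 2 or 3 of L1L2-AKO *Ms4a7* and *Lipa* did. The groups did not overlap in 9 of the 10 genes, 8 higher and 1 lower, where 18.0% of all tested genes were higher without overlap and 18.4% lower.

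**Figure D1:**
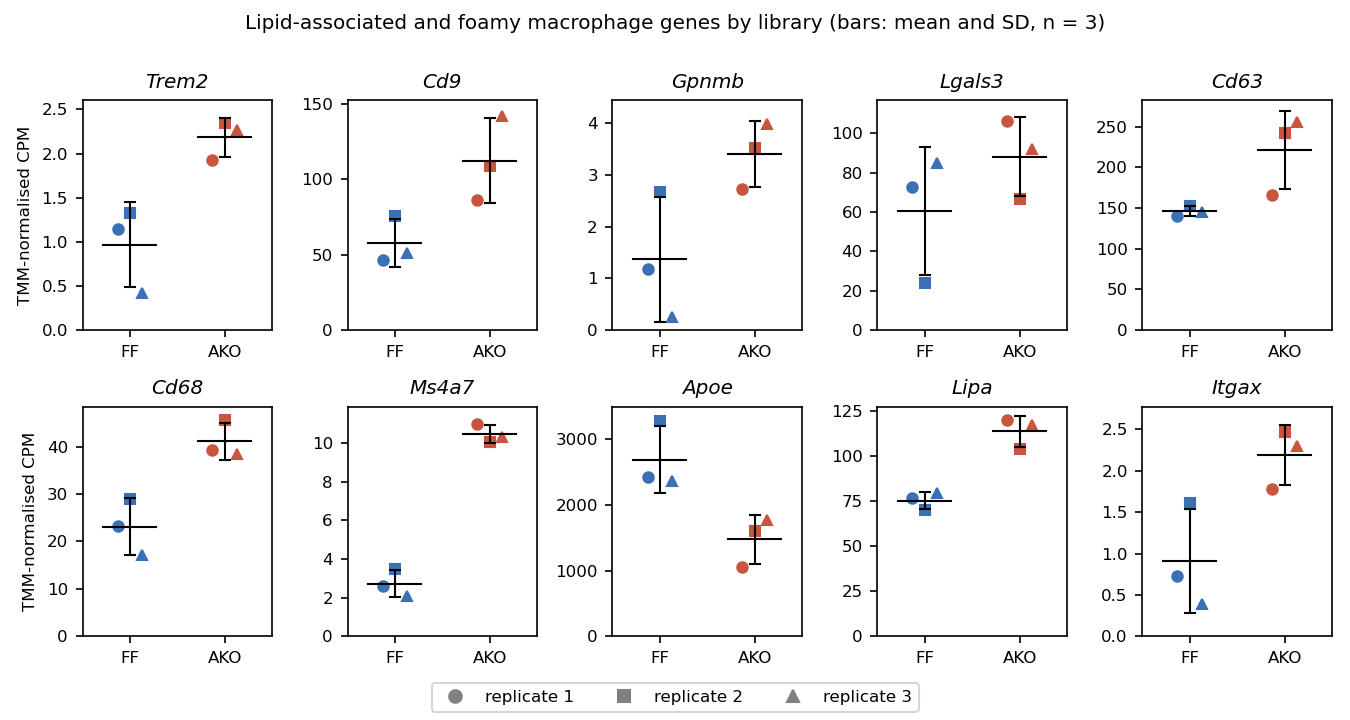
TMM-normalised CPM (vertical axis, linear, from 0) of the 10 genes in the 3 L1L2-FF and 3 L1L2-AKO libraries (horizontal axis), with a marker shape per replicate number, a line at the mean and bars for the SD (n = 3). The groups do not overlap in 9 of the 10 genes, 8 of them higher and *Apoe* lower in the libraries labelled L1L2-AKO, and *Lgals3* is the gene in which they overlap.

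Promoter windows of all 10 genes, 300 bases around 13 annotated starts in RefSeq (GRCm38.p6), were searched on both strands for the letters of 4 motifs. The AP-1 motif TGACTCA was found for *Cd68*, *Gpnmb* and *Itgax*, against 5.2% of all 32851 promoter windows. The TEAD motif GGAATG, the motif of the DNA-binding partners of YAP and TAZ, was found at 1 start each of *Apoe* and *Ms4a7*. These are 2 of the 13 windows, near the share of 14.7% in all windows, so the count is no result about the 10 genes. The E-box CACGTG of MiT/TFE factors and the PU.1 motif AGGAAGT were found in none of the 13, against 7.2% and 9.4%. A match is a description of the letters and not a measured site. The matches may lie on either strand, and TGAGTCA is the reverse complement of the AP-1 letters. Of the 2 starts of *Ms4a7*, the inner holds the TEAD match and is the one printed, and the outer holds none of the 4 motifs. The bases before the start are printed for *Ms4a7* (chr19:11334696-11334945, minus strand), *Cd68* (chr11:69666171-69666420, minus strand) and *Itgax* (chr7:128129300-128129549, plus strand), 5′ to 3′ with the matches in capitals.
Ms4a7: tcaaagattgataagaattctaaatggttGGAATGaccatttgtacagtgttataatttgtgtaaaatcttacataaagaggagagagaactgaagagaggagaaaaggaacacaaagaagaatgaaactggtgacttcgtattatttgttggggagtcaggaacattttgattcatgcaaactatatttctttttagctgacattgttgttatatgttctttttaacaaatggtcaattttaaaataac
Cd68: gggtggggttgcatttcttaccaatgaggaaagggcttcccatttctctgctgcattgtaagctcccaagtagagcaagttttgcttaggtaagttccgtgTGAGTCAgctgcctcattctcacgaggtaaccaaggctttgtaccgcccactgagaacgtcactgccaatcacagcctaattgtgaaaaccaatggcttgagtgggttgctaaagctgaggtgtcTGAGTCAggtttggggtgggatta
Itgax: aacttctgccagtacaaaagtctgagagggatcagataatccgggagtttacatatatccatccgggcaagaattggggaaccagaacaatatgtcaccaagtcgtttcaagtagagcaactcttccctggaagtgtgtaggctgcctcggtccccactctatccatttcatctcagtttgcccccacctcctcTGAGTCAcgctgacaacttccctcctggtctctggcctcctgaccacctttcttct

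Values are given below for replicates 1 to 3 of L1L2-FF and then for replicates 1 to 3 of the libraries labelled L1L2-AKO, and positions are those of mm10. The level of *Trem2* (chromosome 17, 48346401 to 48354147, plus strand), the receptor at the head of the programme, was low. It was counted 36, 43 and 13 times in L1L2-FF replicates 1 to 3 and 64, 74 and 65 times in L1L2-AKO replicates 1 to 3, which is 0.966 ± 0.482 and 2.18 ± 0.222 CPM (SD, n = 3 each). The groups did not overlap, and the spread lay mostly in L1L2-FF, where replicate 2 had 3.17 times the level of replicate 3. The log2 fold change of *Trem2* was 1.17 (standard error 0.414, 95% interval 0.22 to 2.12) and did not pass edgeR's test (adjusted p = 0.0940), although DESeq2's Wald test gave an adjusted p of 0.0439.

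*Itgax* (chromosome 7, 128129547 to 128150657, plus strand) encodes CD11c, the integrin subunit by which inflammatory adipose macrophages and dendritic cells are sorted. L1L2-FF libraries held 23, 52 and 12 counts and those labelled L1L2-AKO 59, 78 and 66, or 0.910 ± 0.629 and 2.19 ± 0.362 CPM (SD, n = 3 each). The 2 groups lay close, with the highest L1L2-FF library at 1.61 CPM and the lowest of the others at 1.78 CPM. The log2 fold change was 1.26 (standard error 0.480, 95% interval 0.15 to 2.36, edgeR, adjusted p = 0.118). Without L1L2-FF replicate 2 it was 1.95 with an adjusted p of 0.0153 in edgeR's test. Another integrin gene, *Itgad*, holds 8.02% of its stretches of 50 bases.

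*Gpnmb* (chromosome 6, 49036546 to 49070929, plus strand), a glycoprotein of melanosomes and lysosomes that foamy macrophages make in quantity, had the widest spread. There were 37, 86 and 8 counts in L1L2-FF against 90, 111 and 114 counts, so that L1L2-FF replicate 2 had 10.3 times the CPM of replicate 3 and nearly reached the lowest of the other group. The log2 fold change of 1.31 (standard error 0.628, 95% interval -0.14 to 2.76) did not pass edgeR's test (adjusted p = 0.204). Leaving out L1L2-FF replicate 2 moved it to 2.23 with an adjusted p of 0.0298, and leaving out replicate 3 or 1 of L1L2-FF did not bring it past the threshold. Melanocytes also make GPNMB. Of their 8 markers *Tyr*, *Tyrp1*, *Mlana* and *Slc45a2* were below the count filter, and of the 4 tested 0 rose and *Sox10*, which Schwann cells share, fell (log2 fold change -1.81). *Sox10* did not pass in limma-voom, nor in edgeR's test without replicate 2 or 3 of L1L2-FF or replicate 1 or 3 of L1L2-AKO.

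*Ms4a7* (chromosome 19, 11321039 to 11336146, minus strand), a multi-pass membrane protein of the MS4A family found in macrophages, was the only one of the 10 called in all 13 alternative fits. L1L2-FF libraries held 82, 112 and 65 counts and those labelled L1L2-AKO 364, 317 and 296. The level was 2.73 ± 0.691 and 10.5 ± 0.475 CPM (SD, n = 3 each), with the lowest library of the second group at 10.1 CPM and the highest of the first at 3.46 CPM. The fitted difference on the log2 scale was 1.94 ± 0.219 (standard error), at an adjusted p of 0.00131 in edgeR's test. Over the 6 fits that leave out a library it lay between 1.78 and 2.15, and edgeR's adjusted p stayed at or below 0.0112.

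Among the lysosomal genes, *Cd68* (chromosome 11, 69664213 to 69666153, minus strand), the macrosialin of macrophage lysosomes, had 23.3, 29.0 and 17.0 CPM in L1L2-FF against 39.2, 45.5 and 38.5 CPM. The groups were apart, by 0.83 ± 0.191 on the log2 scale (standard error), at an adjusted p of 0.0230 by edgeR. *Lipa* (chromosome 19, 34492318 to 34527474, minus strand) had 76.5, 70.0 and 79.3 CPM against 119.8, 104 and 117 CPM. Its highest library had 1.13 times the level of its lowest in L1L2-FF and 1.15 times in the other group, and edgeR gave an adjusted p of 0.00988 for a log2 fold change of 0.60 ± 0.111 (standard error). Leaving out L1L2-FF replicate 1 took *Lipa* to an adjusted p of 0.0509.

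The tetraspanin *Cd9* (chromosome 6, 125460266 to 125494791, minus strand), which also marks a fibrogenic class of adipose progenitors, had 46.3, 76.0 and 51.0 CPM in L1L2-FF against 86.5, 109 and 142 CPM. The groups did not overlap, though L1L2-FF replicate 2 and L1L2-AKO replicate 1 lay near each other. The difference was 0.96 ± 0.236 on the log2 scale (standard error, edgeR, adjusted p = 0.0290), and *Cd9* stayed past the threshold in 2 of the 6 fits that leave out a library. The antisense genes *Gm28809* and *Gm26728* overlap *Cd9*, and the strand setting of the counting was not given in the sources used here. *Cd63* (chromosome 10, 128900989 to 128912822, plus strand), the tetraspanin of late endosomes and exosomes, had 140.5, 152.7 and 145.3 CPM against 166.5, 242.4 and 255.0 CPM. The difference was 0.60 ± 0.170 on the log2 scale (standard error, edgeR, adjusted p = 0.0480), with L1L2-AKO replicate 1 well below the other two. *Cd63* passed in 1 of the 6 fits without a library, and limma-voom gave an adjusted p of 0.0534. Other genes, its pseudogene *Cd63-ps* among them, hold 11.0% of its stretches of 50 bases.

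*Lgals3* (chromosome 14, 47367751 to 47386160, plus strand), the galectin that lipid-laden macrophages release and that binds damaged lysosomes, had 72.7, 23.8 and 85.0 CPM in L1L2-FF against 106, 66.4 and 92.0 CPM. Replicate 2 was the lowest library in both groups, and the groups overlapped. The log2 fold change of 0.54 (standard error 0.410, 95% interval -0.40 to 1.49) did not pass edgeR's test (adjusted p = 0.426), and the interval leaves room for a rise as large as that of *Cd9*.

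*Apoe* (chromosome 7, 19696109 to 19699188, minus strand) was the one gene that fell. L1L2-FF libraries had 2420, 3267 and 2361 CPM and those labelled L1L2-AKO 1056, 1594 and 1773 CPM, with no overlap. The log2 fold change was -0.86 (standard error 0.245, 95% interval -1.43 to -0.30, edgeR, adjusted p = 0.0475). In none of the 6 fits that leave out a library did *Apoe* pass: the log2 fold change ran from -1.01 to -0.67 and edgeR's adjusted p from 0.0581 to 0.118. *Apoe* alone made up 86.1% to 90.1% of the counts of the 10 genes in L1L2-FF and 66.4% to 73.1% in the other libraries. The mature adipocyte markers fell beside it, 5 of 12 lower and 0 higher in the same test (median log2 fold change -0.60), and the part of adipocyte RNA in the *Apoe* result was not tested.

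Per kilobase of exon (CPM per kb, a level), the order of the 10 genes was almost the same in both groups. The length was that of all annotated exons of a gene merged over its isoforms, such as 4946 bases for *Trem2* and 1257 for *Cd68*. The order depends on this choice. *Apoe* stood first, at 1255 ± 237 CPM per kb in L1L2-FF and 689.6 ± 175 in the libraries labelled L1L2-AKO (SD, n = 3 each). *Cd63*, *Lgals3*, *Cd9* and *Cd68* followed, from 39.7 down to 18.4 CPM per kb in L1L2-FF and, with *Cd9* ahead of *Lgals3*, from 60.1 down to 32.7 in the others, and each of these overlapped its neighbour. *Lipa* came next at 11.1 and 16.8 CPM per kb, and *Ms4a7* at 0.612 and 2.35, both apart from their neighbours. *Gpnmb*, *Trem2* and *Itgax* stood last, between 0.189 and 0.210 CPM per kb in L1L2-FF and between 0.441 and 0.523 in the others, and these 3 did not differ beyond their spread.

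Within L1L2-FF, replicate 2 was the highest of the 3 libraries in 8 of the 10 genes, all but *Lgals3* and *Lipa*, in which it was the lowest. It was also the highest in 16 of 16 core macrophage genes, and in 40.0% of all tested genes. Replicate 3 was the lowest in 16 of the 16 core genes, in 6 of the 10, and in 6041 of all 15674 tested genes. In the libraries labelled L1L2-AKO, replicate 1 was the lowest in 6 of the 10, and its share over all tested genes was not worked out.

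The core macrophage genes rose together with the 5. Of the 16, 15 were called higher and 0 lower (median log2 fold change 1.51), among them the mannose receptor gene *Mrc1* (log2 fold change 1.84) and the lysozyme gene *Lyz2* (1.08) as the 2 highest in CPM and *Aif1* (2.62) and *Fcgr1* (2.34), which encodes a high-affinity Fc receptor, with the largest changes. The exception was *Mertk*, a receptor for the uptake of dying cells, at 23.7 ± 4.95 and 23.2 ± 2.34 CPM (SD, n = 3 each), named after its value was seen. Without L1L2-FF replicate 1, 9 of the 16 were called.

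Markers of other leukocytes were counted beside them. Of 12 T and B cell markers 0 passed edgeR's test, although 2 were higher at an unadjusted p of 0.05, 1 passed DESeq2's Wald test, 0 passed limma-voom, and 5 passed edgeR's test without L1L2-FF replicate 2; all 12 were fitted higher (median log2 fold change 0.75), and the list summed to 10.3 to 29.3 CPM in L1L2-FF and 18.8 to 35.7 CPM in the libraries labelled L1L2-AKO. Of 11 neutrophil and mast cell markers 0 passed edgeR's test, 2 were lower at an unadjusted p of 0.05, and 1 was lower in DESeq2's Wald test and 0 in limma-voom (median log2 fold change 0.07). Of 12 dendritic cell markers the antigen presentation genes *Cd74* and *H2-Ab1* rose (log2 fold changes 1.48 and 1.46) and *Itgae* fell, and without L1L2-FF replicate 1 or without replicate 2 or 3 of L1L2-AKO 0 rose, and without L1L2-FF replicate 3 only 1 did. *Itgae* passed in 1 of the 6 fits that leave out a library, the one without L1L2-FF replicate 2. Of the monocyte markers, 2 of 10 rose, the chemokine receptor gene *Ccr2* (log2 fold change 1.56) and *Fn1* (0.78), which fibroblasts also make, and 0 did so without replicate 1 or 3 of L1L2-FF or replicate 2 or 3 of L1L2-AKO. Of the non-immune lists, 1 of 12 progenitor markers rose and 2 fell, 0 of 10 endothelial markers rose and 1 fell, 1 of 10 mural markers rose and 3 fell, and 1 of 10 Schwann cell markers rose and 5 fell. In all genes tested, 9.28% were called higher and 7.18% lower, so a count near these shares is no result about a cell type. The counts of these lists moved with 1 library left out. Progenitor markers called lower numbered 0 without L1L2-FF replicate 1 or without replicate 2 or 3 of L1L2-AKO, 1 without L1L2-AKO replicate 1, and up to 3. The endothelial marker was lost without replicate 1 or 2 of L1L2-FF or replicate 2 or 3 of L1L2-AKO. Mural markers called lower numbered 1 without replicate 1 of L1L2-FF or replicate 2 of L1L2-AKO, and 5 without replicate 1 of L1L2-AKO. The Schwann cell list summed to 869 to 1813 CPM in L1L2-FF and 768 to 1430 CPM in the other libraries, and 1 of its markers was called lower without replicate 2 or 3 of L1L2-FF or replicate 1 or 3 of L1L2-AKO.

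**Figure D2:**
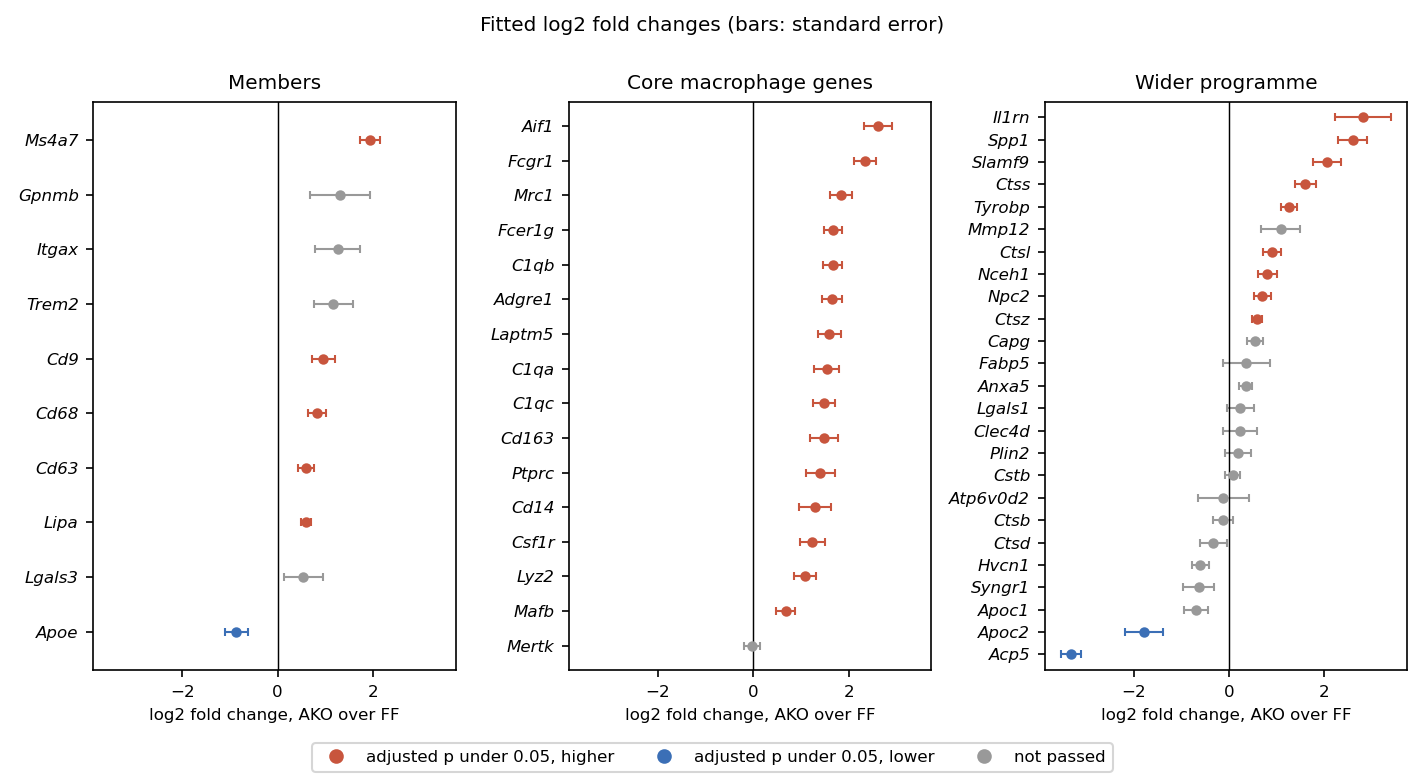
Fitted log2 fold changes (horizontal axis, libraries labelled L1L2-AKO over L1L2-FF, bars for the standard error) of the 10 genes, the 16 core macrophage genes and 25 further genes of the lipid-associated programme, coloured by edgeR's adjusted p. The core genes other than *Mertk* lie between 0.68 and 2.62, and the further genes spread from -3.31 to 2.81.

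To set each gene against the macrophage genes of its own library, the mean log2 CPM of the 16 core genes was subtracted from its log2 CPM. The core mean was 4.05, 4.59 and 3.64 in L1L2-FF against 5.53, 5.71 and 5.58, a difference of 1.52. On this relative scale *Ms4a7* was higher by 0.43, from -2.64 ± 0.123 to -2.21 ± 0.152 (SD, n = 3 each), and the groups did not overlap. *Cd68* (-0.66), *Lipa* (-0.92), *Cd63* (-0.94) and *Apoe* (-2.40) were lower without overlap. The groups overlapped for *Trem2* (-0.26), *Itgax* (-0.11), *Gpnmb* (0.22), *Cd9* (-0.55) and *Lgals3* (-0.80). Over all genes tested, 86.0% were lower and 1.38% higher without overlap on this scale, so the count of 4 lower genes is no result about them. With 3 libraries against 3, the exact permutation test (two-sided) cannot give a p under 0.1, which the 5 genes without overlap reached.

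**Figure D3:**
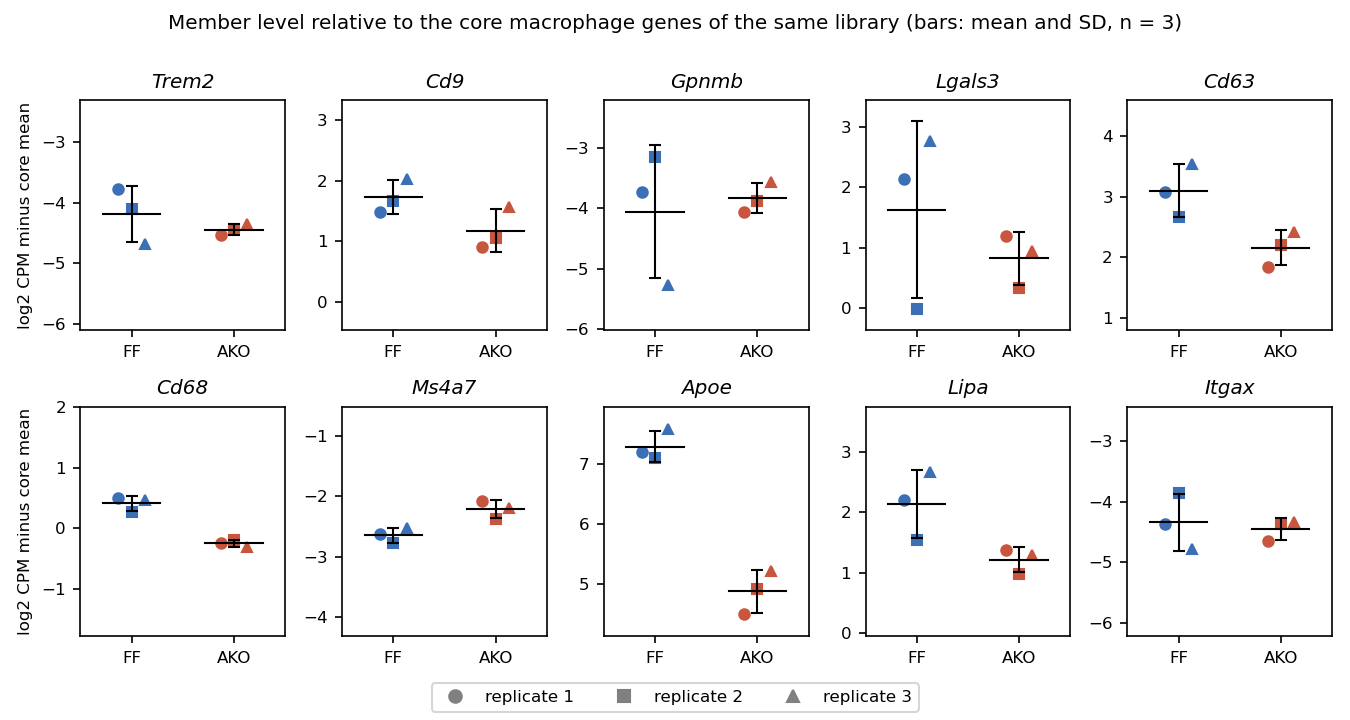
Log2 CPM of each gene minus the mean log2 CPM of the 16 core macrophage genes in the same library (vertical axis, log2 units, the same span in every panel), by group (horizontal axis), with a marker shape per replicate number, lines at the mean and bars for the SD (n = 3). *Ms4a7* is higher in all 3 libraries labelled L1L2-AKO, while *Cd68*, *Lipa*, *Cd63* and *Apoe* are lower in all 3.

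Further genes of the lipid-associated programme did not move as 1 block. Of 25, 9 rose, 2 fell and 14 did not pass in edgeR's test (median log2 fold change 0.35, against -0.02 over all genes tested). The risers included *Spp1*, which encodes osteopontin (log2 fold change 2.59, mean CPM 0.497 and 3.02), the interleukin-1 receptor antagonist gene *Il1rn* (log2 fold change 2.81) and the lysosomal proteases *Ctss* (1.60), *Ctsl* (0.89) and *Ctsz* (0.59). *Npc2*, which hands cholesterol on inside the lysosome, and *Nceh1*, a cholesteryl ester hydrolase of macrophages, had log2 fold changes of 0.69 and 0.80. *Acp5*, the tartrate-resistant acid phosphatase of osteoclasts and lipid-associated macrophages, went the other way by a wide margin, with 210.4, 123.7 and 181.0 CPM in L1L2-FF against 16.7, 16.5 and 18.7 CPM. Its difference was -3.31 on the log2 scale (edgeR, adjusted p = 0.000183). The mean of *Acp5* in L1L2-FF, 172 CPM, lay above the 71.5 CPM of *Mrc1*, the core macrophage gene highest in CPM. Which cells of the floated fraction the RNA of *Acp5* or of the other further genes came from was not tested. *Apoc2*, an apolipoprotein gene of the *Apoe* cluster and the activator of lipoprotein lipase, fell by 1.78 on the log2 scale, but of the 6 fits that leave out a library it passed only in the 1 without L1L2-FF replicate 2 (adjusted p up to 0.0855 in edgeR's test). The 2 of the 25 highest in CPM, *Lgals1* and *Ctsb*, had log2 fold changes of 0.24 and -0.13 and did not pass. Without L1L2-FF replicate 1 or without L1L2-AKO replicate 3, 5 of the 25 were called higher; 4 were called lower without L1L2-FF replicate 2 and 1, *Acp5*, without any of the other libraries.

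Several signalling partners of TREM2 passed the test, which *Trem2* itself, with 13 to 74 counts in a library, did not. The fitted log2 fold change of *Trem2*, 1.17, was larger than those of *Syk* and *Inpp5d*, and a difference from *Trem2* was not tested. The core macrophage genes had a median log2 fold change of 1.51, and whether the changes below concern TREM2 signalling was not tested. *Tyrobp*, its adaptor, reached a mean of 23.8 CPM in L1L2-AKO (log2 fold change 1.25, edgeR, adjusted p = 0.00254). The kinase gene *Syk* (log2 fold change 0.71), the phospholipase gene *Plcg2* (1.38), *Vav1* (1.81) and the phosphatase gene *Inpp5d* (0.71) rose as well, so that 5 of the 11 tested genes of this list were called higher and 0 lower. The sheddases *Adam10* and *Adam17*, which release the TREM2 ectodomain and act in most cells, had log2 fold changes of 0.03 and 0.19. The related receptor *Trem1* (0.35) and the other TREM genes tested did not pass. Without L1L2-FF replicate 1 or without L1L2-AKO replicate 2, 2 of the 11 were called.

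Regulators and targets of lysosomal and cholesterol handling were split. MiT/TFE transcription factors drive lysosomal genes. *Tfec*, a member found in macrophages, rose (mean CPM 0.696 and 2.56, log2 fold change 1.87, edgeR, adjusted p = 0.00327). *Tfeb*, *Tfe3* and *Mitf* had log2 fold changes of -0.13, 0.11 and -0.29 and did not pass. Liver X receptors drive cholesterol export: of their targets the exporter gene *Abcg1* (log2 fold change 1.94) and *Pltp* (1.28) rose, *Mylip* fell by 0.83 on the log2 scale, and the exporter gene *Abca1* (0.10) did not pass. *Pparg*, which adipocytes express strongly, fell by 0.59 on the log2 scale, and *Soat1*, the enzyme that stores cholesterol as ester, had a log2 fold change of 0.68 that passed. In total 4 of the 12 rose and 2 fell, and 2 rose without L1L2-FF replicate 1 or without replicate 2 or 3 of L1L2-AKO. Of the 2 that fell, 0 passed without L1L2-FF replicate 1 or L1L2-AKO replicate 3, and 1 passed without L1L2-FF replicate 2 or without replicate 1 or 2 of L1L2-AKO.

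The relatives of *Ms4a7* moved with it. Of 10 tested genes of the MS4A family and the related TMEM176 pair, 8 were called higher and 0 lower (median log2 fold change 2.33). The same counts were found with DESeq2's size factors and with library size alone. The number called higher was 9 with DESeq2's Wald test or no count filter. It was 7 with limma-voom or at least 10 counts in every library, and 6 with a replicate block. *Ms4a4d* had the largest change of those called (log2 fold change 3.19, mean CPM 1.19 and 10.8), and *Ms4a4c* had a log2 fold change of 2.51 at a very low level, with 2 counts in L1L2-FF replicate 3. *Tmem176a* and *Tmem176b*, the 2 highest in CPM, had log2 fold changes of 2.48 and 1.37, with L1L2-AKO replicate 1 far below the other two (45.7 CPM against 206 and 207 CPM for *Tmem176a*). *Ms4a1*, which encodes the B cell antigen CD20, had a log2 fold change of 0.08. Without replicate 2 or 3 of L1L2-AKO 4 of the 10 were called, and without replicate 1 or 3 of L1L2-FF 5 were. MS4A genes lie in a cluster of similar sequences, and how the authors counted shared reads was not given in the sources used here.

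By contrast, the relatives of *Cd9* and *Cd63* showed no shared direction. Among 21 other tetraspanins 3 rose, 2 fell and 16 did not pass (median log2 fold change -0.03), with library size alone 4 rose and 1 fell, and 1 rose without replicate 1 or 3 of L1L2-FF or replicate 2 or 3 of L1L2-AKO. *Cd53*, a tetraspanin of leukocytes, rose with *Tspan4* and *Tspan17* (log2 fold changes 1.31, 1.41 and 1.01), and *Tspan7* and *Tspan18* were the 2 that fell, of which 0 passed without replicate 1 or 3 of L1L2-FF or replicate 2 of L1L2-AKO, and only *Tspan7* without replicate 3 of L1L2-AKO. The 2 highest in CPM, *Cd81* and *Cd151*, had log2 fold changes of 0.39 and 0.26. For comparison, 9.28% of all tested genes were called higher and 7.18% lower. Of the 6 genes of the galectin list tested beside *Lgals3*, *Lgals9* rose (log2 fold change 0.77) and 5 did not pass. Among those 5 were the adipocyte galectin *Lgals12* (-0.27) and *Lgals3bp* (0.33), which encodes a galectin-3-binding protein and not a galectin. *Lgals9* did not pass without L1L2-FF replicate 3 or without replicate 2 or 3 of L1L2-AKO. Beside *Itgax*, the partner subunit *Itgb2* (log2 fold change 1.02), *Itgam* (1.69), *Itgal* and the adaptor gene *Fermt3* (1.55) rose, 4 of 5 tested, and 2 did without L1L2-FF replicate 1 or without replicate 2 or 3 of L1L2-AKO.

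**Figure D4:**
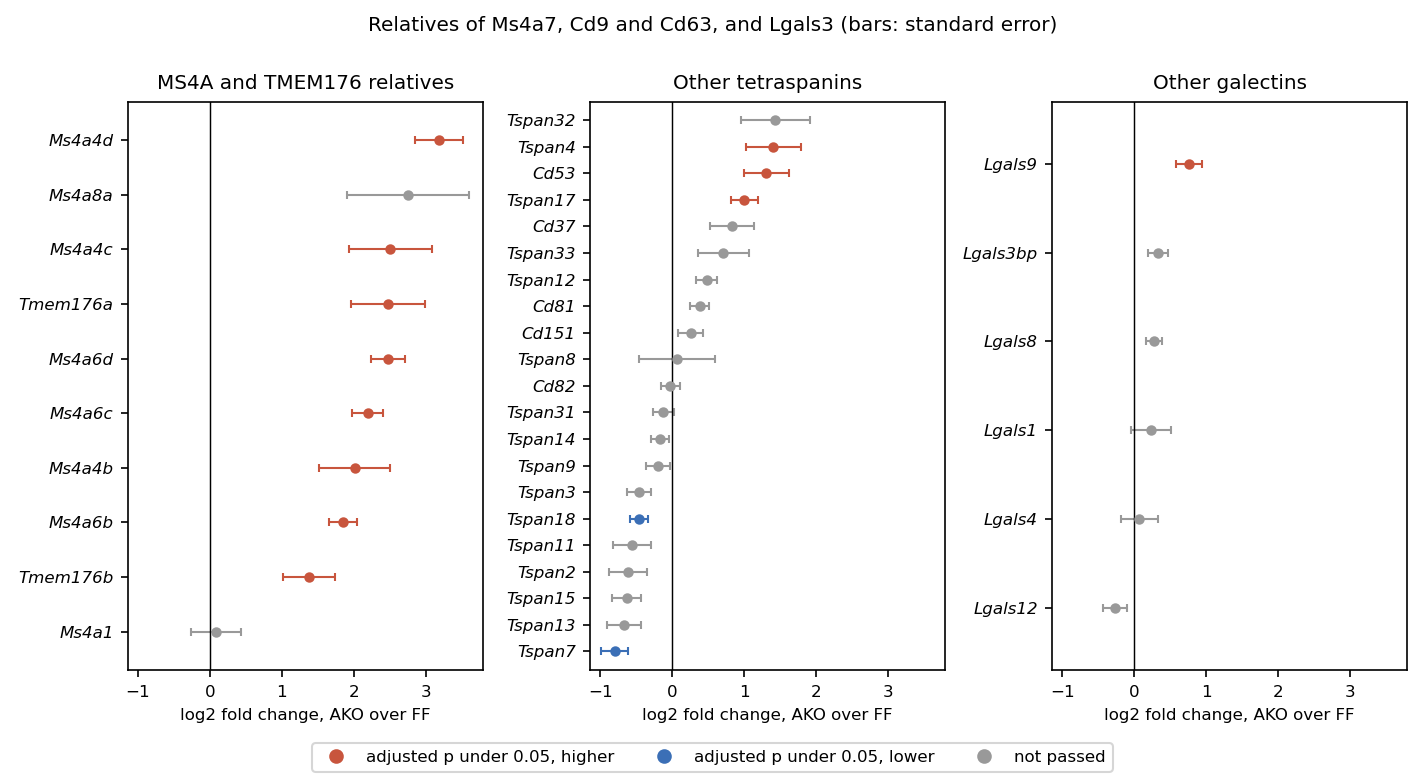
Fitted log2 fold changes (horizontal axis, libraries labelled L1L2-AKO over L1L2-FF, bars for the standard error) of the tested relatives of *Ms4a7*, of *Cd9* and *Cd63*, and of the galectin list, coloured by edgeR's adjusted p. The MS4A and TMEM176 genes lie between 0.08 and 3.19, the tetraspanins between -0.80 and 1.44 and the galectin list between -0.27 and 0.77. The galectin list also holds *Lgals3bp*, which is not a galectin gene.

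Genes of resident perivascular macrophages gave a further reference. Of 14 tested, 6 rose and 0 fell (median log2 fold change 0.80). With each library left out in turn, between 4 (without L1L2-AKO replicate 2) and 8 rose and 0 fell. *F13a1* and *Gas6*, the 2 highest in CPM, rose from means of 75.6 and 31.3 CPM to 186 and 228 CPM. *Gas6* was uneven among the libraries labelled L1L2-AKO, at 128.7, 260.7 and 294.0 CPM in replicates 1 to 3. Which cells of the floated fraction the *Gas6* RNA came from was not tested. The chemokine gene *Ccl8* had the largest change, a log2 fold change of 4.24 from a mean of 0.222 CPM. *Lyve1*, *Folr2* and *Timd4*, which mark the long-lived resident cells, had log2 fold changes of 0.48, 0.59 and 0.45 and did not pass. Among osteoclast markers *Ctsk* rose (log2 fold change 1.36), *Acp5* fell, and *Calcr*, *Dcstamp* and *Oscar* were under the count filter.

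Genes with a profile most like that of *Trem2* were sought among the 10068 genes whose average log2 CPM reached 3. Over the 6 libraries the 5 with the highest Pearson r with *Trem2* were *Cbx6*, *Rarg*, *Slc44a2*, *Pla2r1* and *Slc12a9* (0.987 to 0.994). For *Gpnmb* they were *Lix1l*, *Erbb2*, *Rarg*, *Gm7536* and *Brd8* (0.991 to 0.995). None of these passed edgeR's test between the groups, and an r over 0.95 was reached by 96 genes for *Trem2* and 59 for *Gpnmb*, so that likeness over so few libraries is a description only.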

How the data were processed

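RNA from floated scWAT adipocytes was measured in 3 L1L2-FF and 3 L1L2-AKO libraries, grouped by the submitters' labels. The authors sequenced paired ends on a BGISEQ-500, aligned the reads to mm10 with HISAT2 (2.1.0) and analysed them with StringTie (1.3.5), and deposited raw counts, 1 per gene symbol, that were not normalised. The gene annotation, the counting program and its strand setting are not given in the sources used here. Counts were filtered with edgeR's filterByExpr (minimum count 10, minimum total count 15), which kept 15674 of 37384 symbols and all 10 genes described, normalized by TMM, and compared by edgeR's (4.0.16, R 4.3.3) quasi-likelihood F test (two-sided) and Benjamini-Hochberg adjusted p-values. Dividing the size of a log2 fold change by the square root of its F gave its standard error, and the 95% intervals use the test's degrees of freedom. Log2 CPM values use a prior count of 2. The tests were checked on simulated counts. Positions and exon lengths, merged over all annotated isoforms of a gene, are from GENCODE M21, and promoters from RefSeq. The alternatives were DESeq2's (1.42.0) size factors and Wald test, library size alone, limma-voom (limma 3.58.1), other count filters, a replicate block, and each library left out. Named beside the 10 genes were the 2 most abundant genes and the 2 largest changes past the threshold of each list, the 5 genes most like *Trem2* and *Gpnmb*, and, to complete a count or a family, further members of a list, chosen after their values were seen. The genes and lists were chosen with earlier results of these data known. Replicates of a group differed by more than sampling noise, and the study's methods call them biological replicates, each prepared, per the labels, from adipocytes of 4 pooled mice.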

Additional observations from a re-analysis of the deposited data

How the results depend on the processing

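The number of genes past the threshold, 2580 in edgeR's test, ran from 2413 to 3370 over the alternatives that keep every library, and with each library left out it lay between 1281 and 2845. Of the 10 genes, 6 were called (5 higher, 1 lower); with each library left out in turn between 1 and 6 were called, between 1 and 6 of them higher and 0 lower. With at least 10 counts required in every library 0 of the 10 was lower, because *Apoe* had an adjusted p of 0.0514 in edgeR's test, and *Gpnmb* could not be fitted, since L1L2-FF replicate 3 has 8 counts. The main fit did not pair libraries by replicate number. The deviations of same-numbered libraries from their group means had correlations over genes of 0.188, 0.255 and -0.054. Replicates 1 and 2 of L1L2-FF were closest to their own number, and replicate 3 of L1L2-FF was closest to L1L2-AKO replicate 1 (0.211). With so few libraries, these correlations cannot settle whether the numbers pair samples. A replicate block gave 2514 genes and called 6 of the 10, 5 higher and 1 lower, while it moved the lower calls from 2 to 5 among tetraspanins, from 5 to 9 among Schwann cell markers and from 1 to 4 among endothelial markers. Relative to the core macrophage genes, 5 of the 10 did not overlap between groups, and 5 or 6 did so under every alternative run, including pairs by replicate number and, added after the data were seen, the core list without *Mertk*. Over all genes tested, 86.0% were lower and 1.38% higher without overlap on this scale, so this count is no result about the 10. No fitted direction of a called gene in any list changed with DESeq2's size factors or library size alone. *Trem2*, *Gpnmb* and *Itgax* had between 8 and 114 counts in a library; *Spp1*, with 14 to 105 counts, passed, and the part of depth in the calls was not tested.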
